A study of Mus musculus with 1 sample.

Results

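Stathmin, tubulin, histone variant and other chromatin genes were described in lung alveolar macrophages (AMs). The 10 genes were Stmn1, Tuba1b, Tubb5, Tuba1c, H2afz, H2afx, Hmgb1, Hmgn2, Ptma and Ran, out of 11918 genes listed. They were selected on the values of these same cells, namely their level in cells with and without unique molecular identifiers (UMIs) of Top2a or Rrm2 and their detection in cells with neither. Differences between those cells are therefore a description of how the genes were chosen and carry no test.

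The study asked how the deacetylase HDAC3 acts in AMs, the resident macrophages of the lung alveoli. The data here are 1 WT library, from mice with the genotype Hdac3fl/fl and no Cre, so that the floxed Hdac3 alleles were intact. Mice were 8 to 12 weeks old, of an FVB/NJ line backcrossed to C57BL/6 over 10 generations, and had received no treatment. The lungs were digested with collagenase D, cells that were CD45+CD11c+SiglecF+ were sorted, and 5000 cells were loaded for droplet sequencing from transcript 3′ ends. The study's legend gives 1 mouse for this genotype. With 1 library and no replicate there is no test between groups, cells are not replicates, and every interval below is a 95% interval that covers counting error only. The knockout library was not analysed here.

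The library held 2055 cells and 7222978 UMIs, with a median of 3278 UMIs per cell and a range of 1143 to 8603. All 15 AM markers were listed, in 31.7% of cells for Pparg to 100% for Chil3, and 11 of them were detected in more than 50% of cells. Of the markers of monocytes, neutrophils, lymphocytes and dendritic cells, 5 of 7, 2 of 5, 3 of 10 and 2 of 6 were listed, each in at most 10.1% of cells. They summed to at most 1.58 UMIs per 10000 for any of these lists, in cells with or without Top2a or Rrm2 UMIs. The lung epithelial list summed to 3.12 in cells with Top2a or Rrm2 UMIs and 3.57 in cells with neither, most of it Epcam, which was detected in 58.1% of cells. Sftpc, the surfactant protein C gene of type II epithelial cells, was detected in 6.86% of cells, and Scgb1a1 of club cells in 5.50%. No cell type that should lack the 10 genes was in the sort, so those shares are the nearest measure of free RNA, and its part in the low values below was not tested.

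Several of the 10 genes serve every cell and also serve division. Tubulin alpha and beta chains form microtubules, and stathmin binds tubulin dimers and promotes microtubule disassembly until it is phosphorylated at mitosis. H2A.Z and H2A.X replace ordinary H2A in nucleosomes, HMGB1 and HMGN2 bind linker DNA and nucleosomes, and prothymosin alpha is an acidic partner of histones. Ran is the GTPase that drives nuclear transport and, in mitosis, spindle assembly. Top2a encodes the DNA topoisomerase that separates sister chromatids and is most abundant in G2 and M, and Rrm2 encodes a subunit of ribonucleotide reductase that is made in S phase. AMs renew themselves in the adult lung, so dividing cells are a known minority among them.

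On GRCm38 (mm10), in GENCODE vM21, all 10 are protein-coding genes. Stmn1 lies at chr4:134468320-134473843 on the plus strand and Hmgn2 at chr4:133964738-133968650 on the minus strand. Tuba1b (chr15:98931425-98934565, minus) and Tuba1c (chr15:99029891-99038110, plus) are neighbours on one chromosome, and Tubb5 is at chr17:35833921-35838306 on the minus strand. H2afz, named H2az1 in RefSeq, is at chr3:137864487-137866922 (plus), and H2afx at chr9:44334694-44336077 (plus). Hmgb1 spans chr5:149046702-149184489 (minus), Ran is at chr5:129020069-129024323 (plus) and Ptma at chr1:86526726-86530712 (plus).

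A promoter was found in RefSeq (GRCm38.p6) for 8 of the 10 genes, all but Stmn1 and H2afx. The 250 bases before each start site were searched on both strands for 4 motifs of cell cycle promoters, which were CCAAT (bound by NF-Y), TTTGAA (the cell cycle genes homology region, CHR) and the E2F sites TTTCCCGC and TTTGGCGC. No match overlapped a match of another motif in the windows of these genes, Top2a or Rrm2. CCAAT was present before 4 of the 8 genes (Tubb5, Tuba1c, H2afz and 1 of 2 start sites of Hmgb1) and in 33.9% of all 32851 promoters. At least 2 copies were present for 3 of the 8 genes, against 10.1% of all promoters. Each of the 8 genes was counted once, by any of its start sites, while all promoters were counted 1 by 1, so the units differ. The other motifs were in none of the 8, and in 15.99% (TTTGAA), 0.895% (TTTCCCGC) and 0.417% (TTTGGCGC) of all promoters. The windows of Tubb5 (chr17:35838302-35838551, minus), H2afz (chr3:137864237-137864486, plus) and, for comparison, Top2a (chr11:99024190-99024439, minus) are printed as examples, with 2 copies of CCAAT before each of the former and 6 before a gene that marks the cells. Capitals mark CCAAT or its reverse complement, and in Top2a also 2 copies of the CHR motif.
Tubb5: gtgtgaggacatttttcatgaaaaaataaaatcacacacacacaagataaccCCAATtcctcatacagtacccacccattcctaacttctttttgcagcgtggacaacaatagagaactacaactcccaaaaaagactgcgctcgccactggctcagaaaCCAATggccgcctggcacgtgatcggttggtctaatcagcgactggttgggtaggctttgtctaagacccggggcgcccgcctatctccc
H2afz: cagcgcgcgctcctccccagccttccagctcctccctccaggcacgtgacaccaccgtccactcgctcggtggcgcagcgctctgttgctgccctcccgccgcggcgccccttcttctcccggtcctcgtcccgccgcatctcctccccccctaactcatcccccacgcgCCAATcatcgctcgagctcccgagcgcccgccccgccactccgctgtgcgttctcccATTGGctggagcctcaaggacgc
Top2a: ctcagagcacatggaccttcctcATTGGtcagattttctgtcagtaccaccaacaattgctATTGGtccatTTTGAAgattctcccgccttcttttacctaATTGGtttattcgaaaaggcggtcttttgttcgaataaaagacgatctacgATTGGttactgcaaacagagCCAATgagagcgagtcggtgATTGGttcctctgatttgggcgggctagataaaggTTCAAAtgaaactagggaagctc
A match is a description of letters and was not tested as a binding site.

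Where reads from the 3′ end could fit more than 1 gene, counts are less certain. All 98-base stretches of the last 300 bases of each gene's coding transcripts were sought in the transcripts of other genes. None of those of Tubb5, H2afx and Ran recurred. For Hmgb1, 54.9% recurred, in 52 other genes, none of which was listed in the data. For Hmgn2, 44.7% recurred, all of them in Gm10282, a pseudogene that was listed. For Stmn1 the share was 32.9% (in Gm11223), for H2afz 16.3% (in Gm8203) and for Ptma 6.74%. Tuba1b and Tuba1c shared 19.2% and 29.1%, in part with Tuba1a and, for Tuba1c, with Tuba1b.

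The base levels of the 10 genes in all AMs differed by more than an order of magnitude. Levels are UMIs of the gene per 10000 UMIs of the cells pooled, and as 1 UMI stands for 1 transcript end they do not scale with transcript length. Ptma was highest, at 20.9 (95% interval 20.6 to 21.2), with a UMI in 97.7% of cells. H2afz followed at 16.1 (15.8 to 16.4), in 93.9% of cells. Hmgn2 (5.38), Hmgb1 (4.43), Tubb5 (3.94), Ran (3.63), Tuba1b (3.41) and Stmn1 (2.81) formed a middle group. Of the neighbours in that order, only Tuba1b and Ran had overlapping intervals, 3.28 to 3.55 and 3.49 to 3.77. Tuba1c (0.573) and H2afx (0.328) were lowest, with UMIs in 16.01% and 10.1% of cells. Stmn1 was unlike the genes of similar level, since it was detected in 30.1% of cells while Tuba1b was detected in 54.4% and Ran in 63.5%.

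Cells with a UMI of Top2a or Rrm2 numbered 172, or 8.37% of all, and 1883 cells had neither. The cells with a UMI were deeper, with a median of 4236.5 UMIs against 3192, and 11.6% of them had over 5% mitochondrial UMIs, against 19.3% of the others. The 10 genes together took 145 of 10000 UMIs in the first class and 51.6 in the second.

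Stmn1 separated the classes most. It stood at 15.3 UMIs per 10000 in cells with Top2a or Rrm2 UMIs and at 1.33 in cells with neither, a fold of 11.5 (10.5 to 12.6), and the 172 cells held 57.6% of all its UMIs. Its median over the marked cells was 10.7 per 10000, with quartiles of 1.56 and 22.9, and over the other cells the median was 0 and the highest cell 33.9. The classes overlapped in single cells, for 76.2% of the marked cells and 25.9% of the others had a Stmn1 UMI.

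The tubulins Tubb5 and Tuba1b came next. Tubb5 stood at 15.2 against 2.62 per 10000, a fold of 5.80 (5.38 to 6.25), and Tuba1b at 10.2 against 2.61, a fold of 3.91 (3.59 to 4.26). Both alpha and beta chains were thus near 2.6 in cells with neither, but Tubb5 was the higher of the pair in the marked cells. Tuba1c, a minor alpha chain here, stood at 1.14 against 0.506, a fold of 2.25 (1.76 to 2.86).

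Of the histone variants, H2afx had the larger fold on the smaller level. It stood at 0.957 against 0.254, a fold of 3.77 (2.82 to 5.00) that rests on 73 and 164 UMIs. H2afz stood at 35.1 against 13.9, a fold of 2.53 (2.43 to 2.65). In absolute terms the H2afz difference was the second largest of the set, after that of Ptma.

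The remaining 4 genes lay between 2.05-fold and 2.58-fold. Hmgb1 stood at 9.81 against 3.80 (2.58-fold, 2.38 to 2.81), Ptma at 40.4 against 18.6 (2.17-fold, 2.09 to 2.26), Hmgn2 at 10.1 against 4.83 (2.09-fold, 1.93 to 2.26) and Ran at 6.70 against 3.26 (2.05-fold, 1.86 to 2.26). For Ran and Hmgn2 the intervals span 2-fold. All 10 genes were at least 2-fold higher, as the choice of genes fixed, against 3.82% of the 7770 genes with at least 50 UMIs, while 2.83% of those were at least 2-fold lower. The median fold was 0.998 over all genes and 2.56 over the 10.

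The size of these folds depended on the marking. On the log2 scale, Stmn1 stood at 3.52, at 4.11 with at least 2 marking UMIs, and at 2.33 when cells with 3 or more genes of S phase and G2/M lists were set against cells with 0. The log2 fold of Tubb5 was 2.54, 3.17 and 1.08 in these settings, and that of H2afx 1.91, 2.51 and 0.47. By the last setting 3 of the 10 genes (Stmn1, Tuba1b and Tubb5) were at least 2-fold higher. The cells of that setting were not thinned to equal depth, and its share of all genes past 2-fold was not computed.

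**Figure D1:**
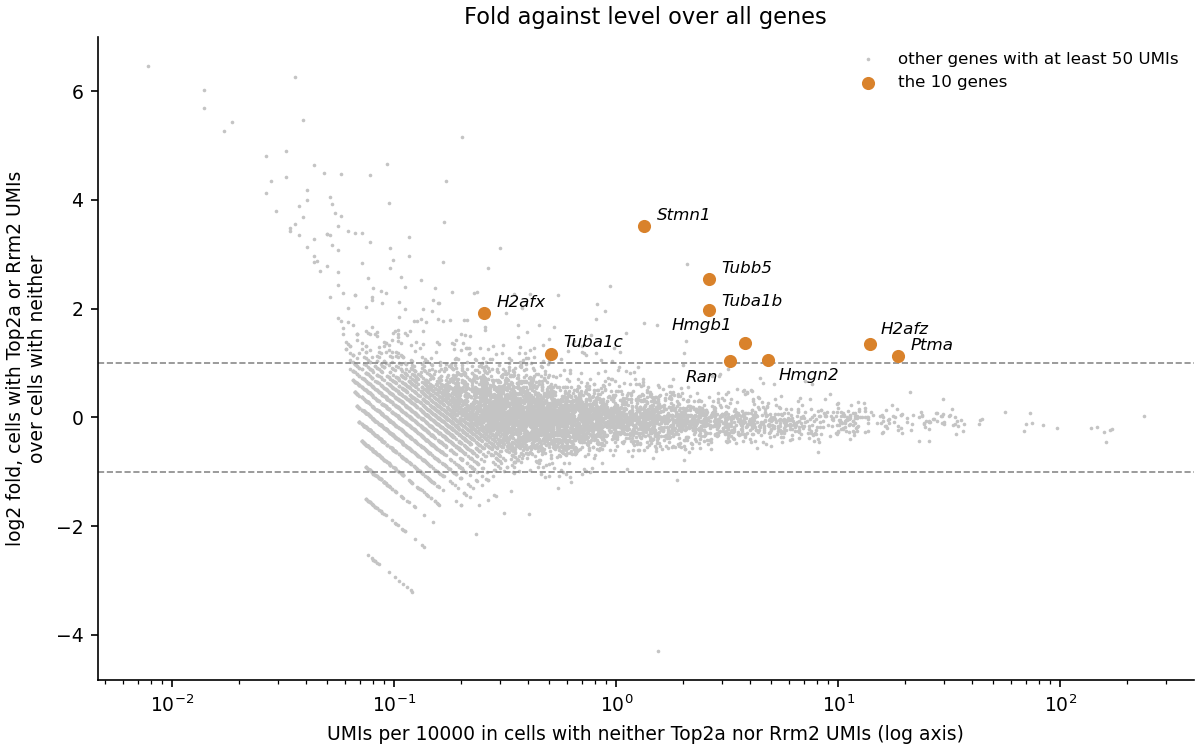
Each point is a gene with at least 50 UMIs in the library. The horizontal axis is its level in cells with neither Top2a nor Rrm2 UMIs (UMIs per 10000, log axis), the vertical axis the log2 fold of cells with a UMI of either over those with neither, and dashed lines mark 2-fold. The 10 genes (orange) run from 2.05-fold for Ran to 11.5-fold for Stmn1, and H2afz and Ptma lie above a cloud of equally abundant genes that is close to no difference. Genes with 0 UMIs in either class (2) are not drawn.

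The levels of all but Tuba1c followed the number of marking UMIs, which is part of the same rule. Cells with 1 UMI of Top2a or Rrm2 (80 cells) had 5.01 Stmn1 UMIs per 10000, those with 2 to 4 (42 cells) had 16.9 and those with 5 or more (50 cells) had 27.5. Stmn1 was detected in 52.5% of the cells with 1 marking UMI and in 100% of those with 5 or more. Tuba1b went from 2.61 in cells with 0 to 3.45, 13.6 and 16.5, and Tubb5 from 2.62 to 4.06, 22.0 and 24.6. Tuba1c went from 0.506 to 0.549, 1.72 and 1.49. H2afz went from 13.9 to 20.3, 37.5 and 52.5, and Ptma from 18.6 to 25.8, 43.4 and 57.2. The median depth was higher beside them, from 3192 UMIs over 3960 and 4396 to 5227.5, and its part in these steps was not tested.

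The kind of marking UMI was examined by parting the 172 cells. Rrm2 alone was seen in 44 cells, Top2a alone in 62 and both in 66. The 10 genes together took 72.3, 117 and 209 of 10000 UMIs in these classes. In that order Stmn1 stood at 4.15, 11.1 and 25.1, Tubb5 at 3.88, 13.5 and 23.0, Tuba1b at 3.71, 7.52 and 16.05, and H2afz at 18.1, 29.4 and 49.4. All 4 were lowest with Rrm2 alone and highest with both. The median depth of the classes, in the same order, was 3958.5, 4052 and 4854.5 UMIs. The 44 cells held 57 Rrm2 UMIs, the 62 held 105 Top2a UMIs, and the 66 held 205 of Top2a and 191 of Rrm2. The parts of depth and of the number of marking UMIs in this order were not tested. Of the cells with both, 100% had a UMI of Tuba1b, Tubb5, H2afz and Ptma, and 98.5% one of Stmn1. In cells with Rrm2 alone Stmn1 was 3.11-fold (2.42 to 3.94) above cells with neither, and the other 9 genes lay between 0.875-fold (Tuba1c) and 1.48-fold (Tubb5).

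**Figure D2:**
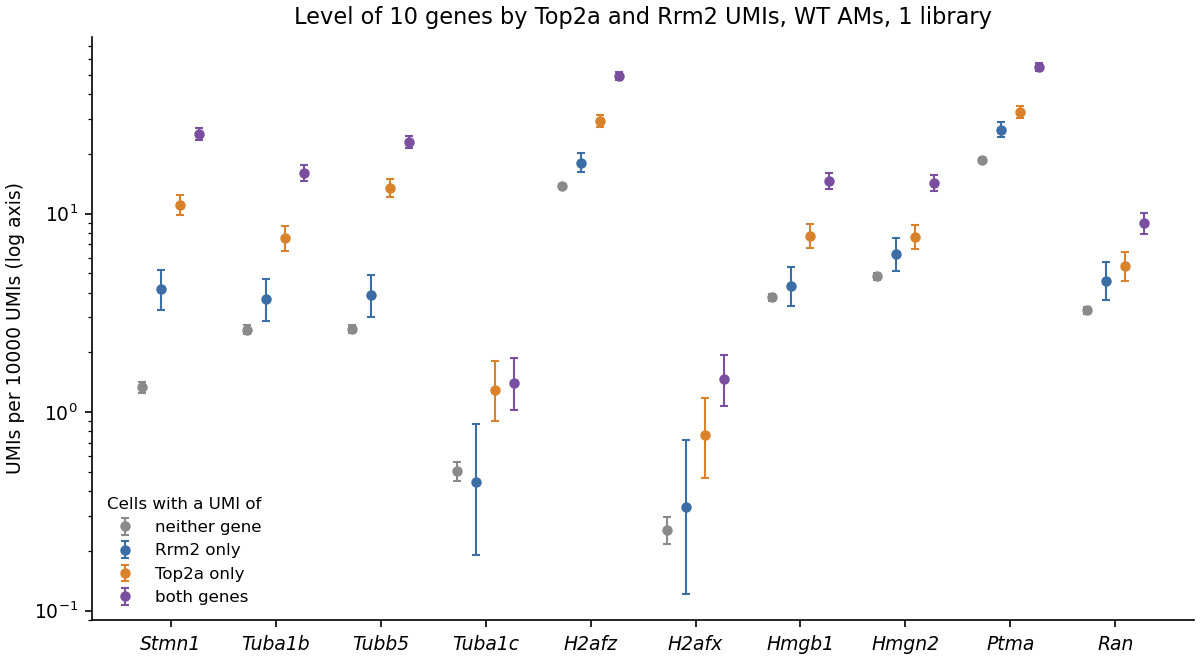
Level of each of the 10 genes (UMIs per 10000, log axis) in 1883 cells with neither Top2a nor Rrm2 UMIs, 44 with Rrm2 only, 62 with Top2a only and 66 with both. Points are pooled levels and bars are exact 95% Poisson intervals. Stmn1 goes from 1.33 to 25.1, and Ran from 3.26 to 8.93.

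Cells with Top2a alone were set against cells with Rrm2 alone. For the genes other than Stmn1, the Rrm2 cells lay between 0.875-fold and 1.48-fold of cells with neither. Whether the contrast is one of cycle phase was not tested. Tubb5 was 3.48-fold higher in the Top2a cells (2.68 to 4.56), Tuba1c 2.93-fold (1.33 to 7.33), Stmn1 2.68-fold (2.07 to 3.50), Tuba1b 2.03-fold (1.53 to 2.72), Hmgb1 1.80-fold (1.38 to 2.36) and H2afz 1.63-fold (1.43 to 1.86). H2afx was 2.30-fold higher with an interval that includes 1 (0.891 to 6.996, 20 and 6 UMIs). Ptma (1.23-fold), Hmgn2 (1.22-fold) and Ran (1.18-fold) were under 1.5-fold. So 7 of the 10 passed 1.5-fold, against a background of 23.5% of 7753 genes that passed upward and 18.5% that passed downward, on a floor of 50 UMIs in the library. Among genes with at least 50 UMIs in the cells compared, which leaves out Tuba1c and H2afx, 5 of 8 passed upward, against 5.84%. The 10 genes were chosen on their level in cells with Top2a or Rrm2 UMIs, and the Top2a cells are among those. These counts are thus a description and carry no test.

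These folds depended on how cells were classed. When each cell was first thinned to 2000 UMIs, a random draw that gives all cells equal depth, 31 cells had Rrm2 alone and 46 Top2a alone. Before thinning, 9 of the 31 and 9 of the 46 had both. In those classes only Tubb5 passed 1.5-fold (1.79, 1.30 to 2.51), Stmn1 was at 1.46 (1.07 to 2.03), and Ptma (0.962) and Ran (0.674, 0.438 to 1.04) were below 1. With the same thinned counts but cells classed on all their UMIs, 7 genes passed again. For these thinned settings the share of all genes past 1.5-fold was not computed. A further classing used genes outside the 10, by which 99 marked cells with more UMIs of a G2/M list than of an S phase list were set against 63 with the reverse, at similar median depth (4251 and 4487 UMIs). By it Tubb5 was 2.55-fold higher (2.20 to 2.95), Tuba1c 2.64-fold (1.54 to 4.80), H2afx 2.19-fold (1.23 to 4.10) and Hmgn2 1.66-fold (1.41 to 1.95), 4 of 10 past 1.5-fold against 22.1% of all genes. Stmn1 (1.42), Tuba1b (1.34), H2afz (1.27) and Hmgb1 (1.23) lay lower, with intervals above 1, and Ptma (1.04, 0.969 to 1.12) and Ran (1.02, 0.847 to 1.22) had intervals that include 1. Tubb5 was past 1.5-fold by each of the 3 classings, and Ptma and Ran by none.

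**Figure D3:**
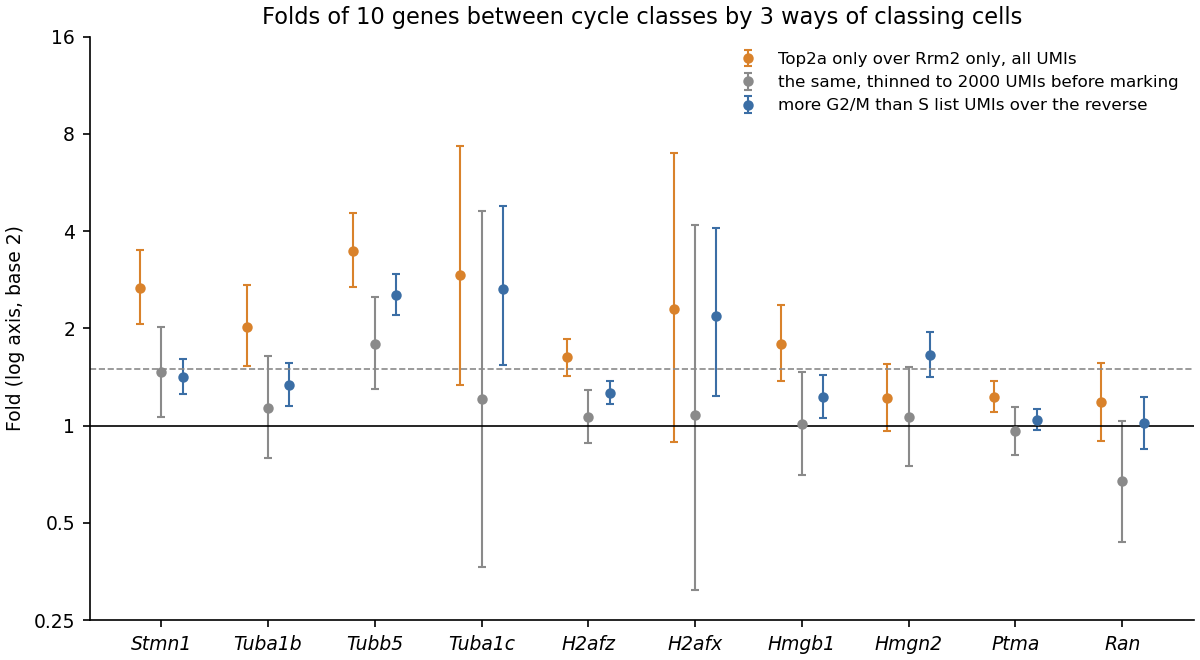
Fold of each of the 10 genes between cycle classes (log axis, base 2), with exact 95% intervals, for Top2a only over Rrm2 only on all UMIs (orange), the same after thinning to 2000 UMIs (grey), and marked cells with more G2/M than S list UMIs over the reverse (blue). The dashed line is 1.5-fold. Only Tubb5 has all 3 points above it, at 3.48, 1.79 and 2.55.

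Detection in cells with neither was measured at equal depth, after thinning to 2000 UMIs, which left 1597 of those cells (286 shallower ones were left out) and 159 marked cells (13 left out). Ptma was detected in 95.3% of the cells with neither, H2afz in 92.7%, Hmgn2 in 59.8% and Hmgb1 in 53.1%. Ran was detected in 47.0%, Tuba1b in 39.0%, Tubb5 in 39.0%, Stmn1 in 18.8%, Tuba1c in 9.08% and H2afx in 5.20%. Before thinning these shares were 97.6%, 93.5%, 72.7%, 66.8%, 61.5%, 51.9%, 51.4%, 25.9%, 14.6% and 8.50%. So 4 genes were in more than 50% of these cells at 2000 UMIs, and 7 before thinning. Detection in these cells was part of the rule, and the share of all genes past that cut was not computed. The marked cells at equal depth had Stmn1 in 73.0%, Tubb5 in 70.4%, Tuba1b in 71.7%, Ran in 73.0% and H2afz in 96.9%. A cell with neither had UMIs of a median of 5 of the 10 genes (quartiles 4 and 5), a marked cell of 7 (5 and 8), and every thinned cell had at least 1.

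The shape of the counts differed between genes in the cells with neither. The variance of the thinned counts over their mean, which is 1 for counting noise alone, was 1.87 for Stmn1, 1.47 for Ptma, 1.35 for H2afz and 1.29 for Tubb5. It was between 0.971 (H2afx) and 1.19 (Tuba1b) for the other 6, and its median over 7767 genes was 1.01, with 3.86% of them over 1.2. These genes were not matched for level, and Ptma and H2afz had the highest mean counts of the 10 (3.79 and 2.79). Stmn1 was at 0 UMIs in 81.2% of these cells and at 1 in 14.2%, yet at 3 or more in 30 cells (20 with 3 or 4, 10 with 5 to 9). Ptma was spread more evenly, with 34.3% of cells at 3 or 4 and 31.1% at 5 to 9. In the marked cells Stmn1 had 3 or 4 UMIs in 18.2%, 5 to 9 in 20.8% and 10 or more in 6.29%.

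**Figure D4:**
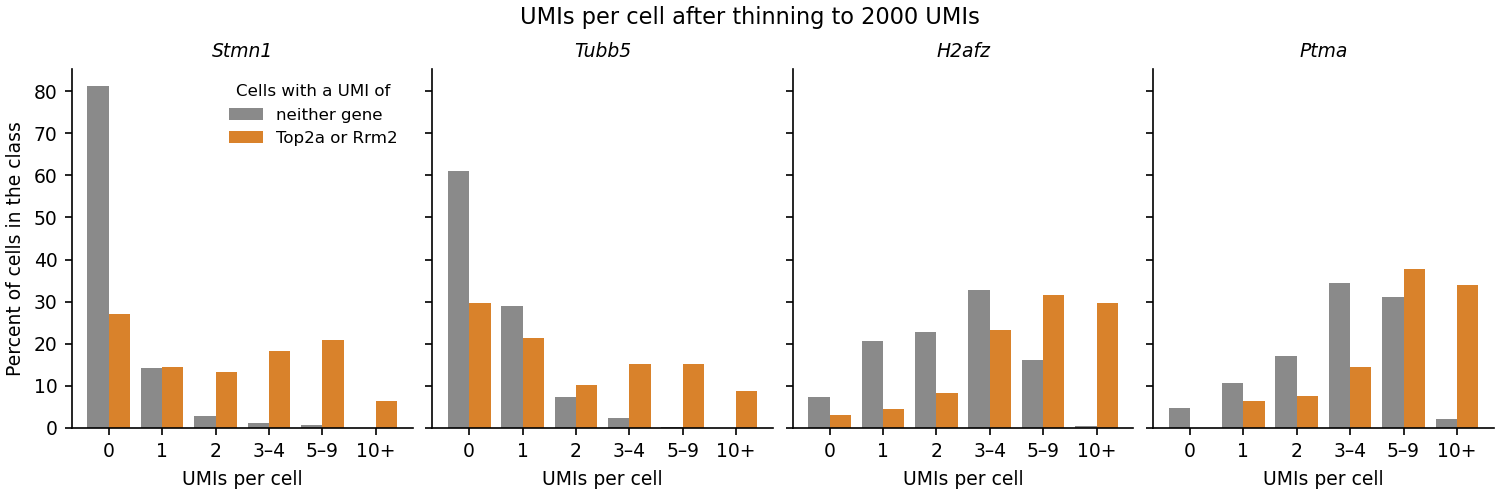
Share of cells (percent) by UMIs of Stmn1, Tubb5, H2afz and Ptma per cell, after thinning to 2000 UMIs, in 1597 cells with neither Top2a nor Rrm2 UMIs (grey) and 159 cells with a UMI of either (orange). Stmn1 and Tubb5 are mostly at 0 in the grey cells (81.2% and 61.0%), whereas H2afz and Ptma are mostly present in both classes.

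Whether the 10 genes followed other cycle genes was then read within the cells with neither, at 2000 UMIs, by how many of 89 S phase and G2/M genes had a UMI. These lists leave out Top2a, Rrm2 and the 10 genes. Stmn1 stood at 0.777 per 10000 in the 148 cells with 0 such genes, 0.827 in 405 cells with 1, 1.00 in 418 cells with 2 and 2.09 in 626 cells with 3 or more. It reached 5.44 in the 126 cells of the last group that had 5 or more, 6.997-fold above the cells with 0 (4.48 to 11.4). Median depth before thinning was 3424.5 UMIs in the cells with 0 and 3499.5 in those with 5 or more.

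The other 9 genes had smaller folds along this series. At 5 or more cycle genes Tubb5 was 2.18-fold (1.59 to 3.02) above the cells with 0, Tuba1b 1.60-fold (1.15 to 2.24), Ptma 1.52-fold (1.35 to 1.71), Ran 1.497-fold (1.13 to 1.99) and H2afz 1.40-fold (1.22 to 1.61). Tuba1c (1.41), Hmgb1 (1.31), Hmgn2 (1.02) and H2afx (0.671, on 4 UMIs) had intervals that include 1. Thus 4 of the 10 passed 1.5-fold at 5 or more cycle genes, against 21.2% of all genes, and 1 of the 10 (Stmn1, 2.69-fold, 1.76 to 4.32) at 3 or more, against 17.4%. Median folds over all genes were 1.03 and 1.02. Hmgn2, 2.09-fold higher in the marked cells, thus stood at 4.97 and 5.08 per 10000 at the ends of this series.

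**Figure D5:**
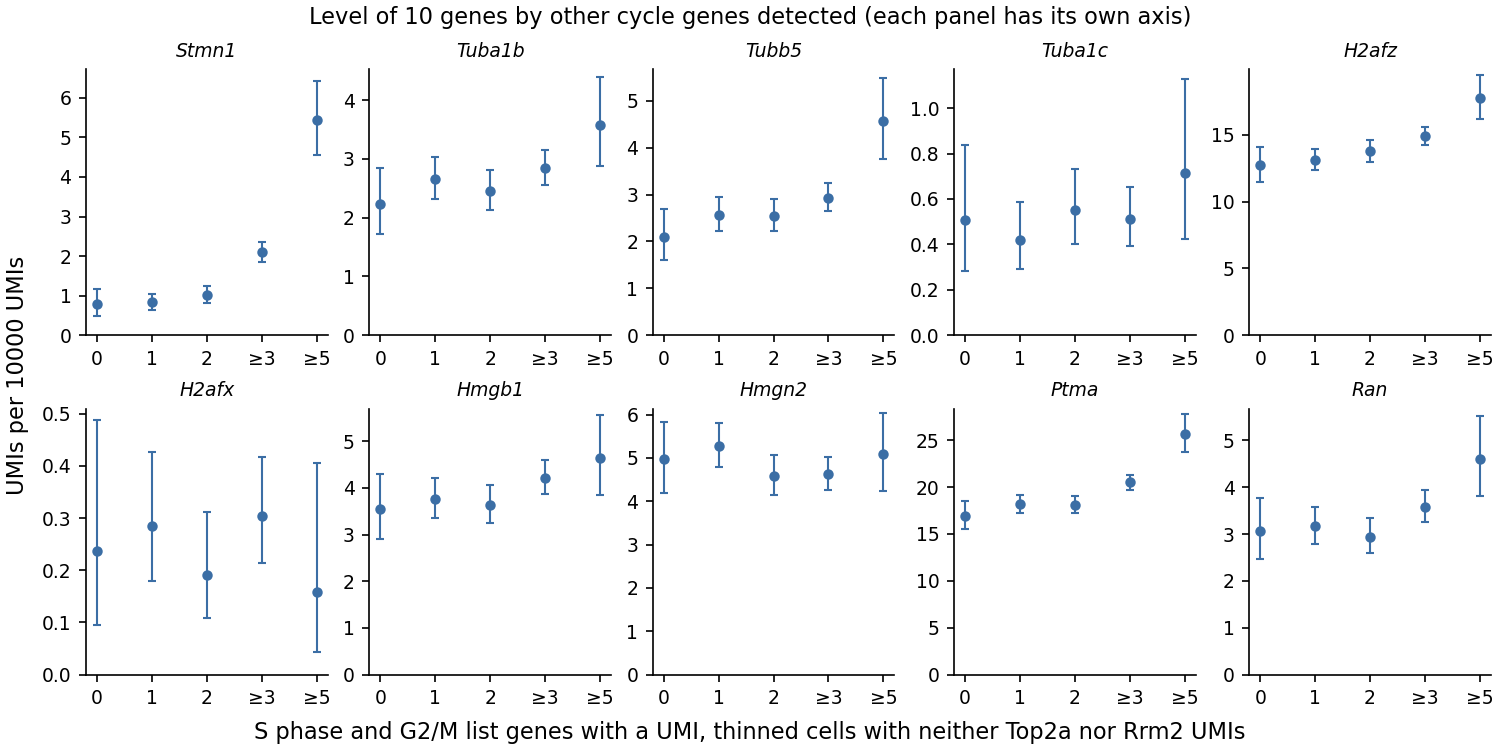
Level of each of the 10 genes (UMIs per 10000, own axis from 0 in each panel) in thinned cells with neither Top2a nor Rrm2 UMIs, by the number of S phase and G2/M list genes with a UMI. The group of 5 or more (126 cells) is part of the group of 3 or more (626 cells), and bars are exact 95% Poisson intervals. Stmn1 goes from 0.777 to 5.44 and Hmgn2 from 4.97 to 5.08.

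The same relation was also read the other way. Of the 1597 thinned cells with neither, 126 had 5 or more cycle genes. Of the 30 cells with neither marker but at least 3 Stmn1 UMIs, 66.7% (Clopper-Pearson interval 47.2 to 82.7) had 5 or more cycle genes, against 5.25% (4.10 to 6.60) of the 1296 cells with none. The share was 28.9% at 2 UMIs and 11.1% at 1 UMI. For cells with at least 3 UMIs of Ran it was 22.9% (12.0 to 37.3, 48 cells) and of Tubb5 19.5% (8.82 to 34.9, 41 cells). It was 17.5% for Tuba1b (40 cells), 13.8% for Hmgb1 (65 cells) and 8.09% for Hmgn2 (136 cells). It was 9.16% for H2afz (786 cells) and 8.98% for Ptma (1080 cells). The same cut thus takes in very unlike numbers of cells, so the shares do not rank the genes.

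Across the 2055 cells, the gene whose deposited log value was most like that of the 10 was 2810417H13Rik (Pclaf in RefSeq, a PCNA-binding factor of S phase), with a median Pearson r of 0.289 over the 10. Top2a (0.269), Birc5 (0.241), Rrm2 (0.234), Cdk1 (0.212), Hmgb2 (0.204), Tmpo (0.197), H2afv (0.190), Dek (0.186) and Cks1b (0.182) came next among 5935 genes found in at least 5% of cells. The cells share 1 library and differ in depth, and correlations with Top2a and Rrm2 repeat the rule. In the 1883 cells with neither, the median r was 0.0711 for 2810417H13Rik. For the others with a value there it lay between 0.0320 (Hmgb2) and 0.0764 (Cks1b). The closest single pair was Stmn1 with 2810417H13Rik (r = 0.595, and 0.290 in the 1883 cells with neither). Tuba1c was closest to Top2a (0.153), Ube2c (0.134) and Smc4 (0.121). Hmgn2 alone had a gene outside the cycle in its closest 3, its own copy Gm10282 (r = 0.230, and 0.211 in cells with neither), with which it shares 3′ sequence as given above. Between the 10 genes themselves the median r over 45 pairs was 0.155 in all cells (highest 0.345, Stmn1 with H2afz) and 0.0538 in the 1883 cells with neither (highest 0.186, again Stmn1 with H2afz).

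Relatives of the 10 genes differed in the same contrast, read against the same 3.82% of all genes upward and 2.83% downward. The lists were drawn up with earlier results of these data known. Of 14 other tubulin and microtubule genes with at least 50 UMIs, 2 were at least 2-fold higher in the marked cells and none 2-fold lower, with a median of 0.95. These were Tubb4b, another beta chain (1.69 against 0.642 per 10000, 2.63-fold, 2.14 to 3.22), and Tuba1a, another alpha chain (2.48-fold, 1.19 to 4.81, on 12 and 41 UMIs). The tubulin folding cofactors Tbca (0.959-fold, 0.871 to 1.05) and Tbcd (0.941-fold) and the microtubule-associated protein gene Map4 (0.960-fold) were nearest to no difference.

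Among 11 other histone genes 3 were at least 2-fold higher and 2 at least 2-fold lower. Hist1h2ap, a replication-dependent H2A gene, stood at 2.74 against 0.0356 (77.0-fold, 49.9 to 124), Cenpa, the centromeric H3 variant, at 2.02 against 0.167 (12.1-fold, 9.38 to 15.6), and H2afv, the second H2A.Z gene, at 4.98 against 0.940 (5.30-fold, 4.65 to 6.04). Hist1h2bc was lower, at 0.839 against 1.88 (0.447-fold, 0.342 to 0.575). Hist2h2aa1 (0.346-fold) rests on 2 and 49 UMIs and its interval includes 1. H2afj and H1f0 (both 0.925-fold) were nearest to no difference, followed by the replication-independent H3.3 gene H3f3a (1.202-fold). Replication-dependent histone transcripts mostly lack the poly(A) tail on which this capture relies, so their levels here are partial.

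In the list of HMG proteins, prothymosin relatives and histone chaperones, 10 of 21 were at least 2-fold higher and none 2-fold lower, with a median of 1.96. Asf1b, a chaperone of newly made H3 and H4, stood at 0.642 against 0.0402 (15.96-fold, 9.73 to 26.8), and Hmgb2 at 14.8 against 2.08 (7.10-fold, 6.55 to 7.69), so that Hmgb2 passed Hmgb1 in the marked cells. Chaf1a of chromatin assembly factor 1 was 6.88-fold higher, the heterochromatin proteins Cbx5 and Cbx3 were 3.43-fold and 2.92-fold higher, and Nucks1 2.86-fold. Ptms (0.944-fold, 0.813 to 1.09), the relative of Ptma, Npm1 (1.11-fold) and Anp32a (1.11-fold) were nearest to no difference. Of 19 Ran cycle and nuclear transport genes, 3 were at least 2-fold higher and none 2-fold lower, with a median of 1.35. Kpna2, an importin alpha, was 4.03-fold higher (3.20 to 5.04), Rangap1, which activates Ran's GTPase, 2.28-fold (1.65 to 3.10) and Cse1l, the exporter of importin alpha, 2.23-fold (1.59 to 3.07). Tnpo3 (1.00-fold), Ranbp2 and Xpo7 (both 0.941-fold) were nearest to no difference.

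Other states of the cells were compared within the 1883 cells with neither. In the 189 cells (10%) highest in MHC class II genes, the folds of the 10 genes over the remaining 1694 cells lay between 0.849 (Ptma, 0.798 to 0.903) and 1.08 (Tubb5), and none passed 1.5-fold either way, against 4.33% of 7768 genes upward and 10.8% downward. In the 189 highest in chemokine and TNF genes the folds lay between 0.845 (Hmgn2, 0.746 to 0.955) and 1.41 (Tuba1c, 1.01 to 1.93), none past 1.5-fold, against 4.69% upward and 12.9% downward. In the 189 highest in immediate-early genes they lay between 0.934 (Hmgn2) and 1.34 (H2afx), none past 1.5-fold, against 6.22% and 11.2%.

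Hmgn2, H2afz, Hmgb1 and Ptma were lower in cells with a high mitochondrial share, and Stmn1 and H2afz higher in deep cells. In the 364 cells with over 5% mitochondrial UMIs, Hmgn2 stood at 3.61 against 5.07 per 10000 in the other 1519 (0.712-fold, 0.638 to 0.792) and H2afz at 11.1 against 14.4 (0.774-fold, 0.727 to 0.822), with Hmgb1 at 0.835-fold (0.743 to 0.935) and Ptma at 0.887-fold (0.844 to 0.933). The other 6 had intervals that include 1 and lay between 0.756-fold (Tuba1c, 0.536 to 1.05) and 1.16-fold (H2afx). None passed 1.5-fold, against 6.26% of genes upward and 4.96% downward. Between the deepest and the shallowest 25% of cells (median 5251 and 1879 UMIs), Stmn1 stood at 1.61 against 0.889 per 10000 (1.81-fold, 1.41 to 2.34), H2afz at 14.5 against 11.1 (1.30-fold, 1.21 to 1.40) and H2afx at 0.202 against 0.335 (0.604-fold, 0.377 to 0.987). The other 7 lay between 0.924 (Tubb5) and 1.12 (Ran). So 1 gene passed 1.5-fold upward and 1 downward, against 6.32% and 12.1% of all genes.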

How the data were processed

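One WT library was analysed. Per the study's methods, the authors processed reads with Cell Ranger and the mm10 build, filtered cells and genes and normalized them in Seurat. The deposited values were natural log values, ln(1 + UMIs per 10000), and a scaled score per gene and cell after regression on UMI number and mitochondrial percent. UMIs were recovered from the log values by the lowest value in each cell, and 100% of nonzero values were whole within 0.01. The methods set limits of 300 and 2500 genes per cell and 5% mitochondrial UMIs, yet 384 cells (18.7%) were over 5% on the deposited genes. No doublet caller was run and clusters were not made. Levels were pooled UMIs per 10000 with exact Poisson intervals, folds carried exact conditional binomial intervals, and shares carried Clopper-Pearson intervals, all at 95%. No p-value was computed, as 1 library allows none. Genes needed at least 50 UMIs to enter counts over all genes. Functions were tested on simulated data. The 10 genes, the lists and the comparisons were chosen with earlier results of these data known, and genes named outside the 10 were the 3 most correlated with each, the 10 with the highest median correlation, and in each related list up to 6 genes past 2-fold and the 3 nearest to no difference. Alternatives changed the depth, the marking, the threshold, the cells and the denominator. Python 3.11.15, numpy 2.4.6, scipy 1.17.1, pandas 2.3.3 and matplotlib 3.10.9 were used.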

Additional observations from a re-analysis of the deposited data

How the results depend on the processing

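With 1 library there is no replicate to leave out, so the limit of every value is 1 animal and the counting error at 3278 UMIs per cell (median). No paired analysis was possible because the labels give 1 sample and no second group. All 10 genes were at least 2-fold higher in cells with Top2a or Rrm2 UMIs in cells with at most 5% mitochondrial UMIs, by means over cells, by the other denominator and with at least 2 marking UMIs. The number was 9 after thinning, 7 with thinned cells marked by 5 or more cycle genes, and 3 with unthinned cells marked by 3 or more cycle genes against 0. The share of all genes past 2-fold was not computed for these settings. At least 2 marking UMIs gave a log2 fold outside the counting interval for each of the 10 genes, from 1.38 (Ran) to 4.11 (Stmn1), and 3 or more cycle genes likewise, from 0.34 (Hmgn2) to 2.33 (Stmn1). The count of 7 past 1.5-fold between Top2a and Rrm2 cells became 1 when cells were thinned before marking, with the log2 fold of Ptma at -0.056 and of Ran at -0.57, and 4 when cells were classed by the G2/M and S lists. It was 7 again when thinned counts kept the classes of all UMIs, with Ran alone reversed (-0.15), and the cause of the loss was not tested. Of these alternatives, only the classing by lists had a share of all genes, 22.1% on a floor of 50 UMIs in the library. Of the 10 genes, those in over 50% of cells with neither numbered 4 at 2000 UMIs, 2 at 1500, 6 at 3000 and 7 without thinning. Shares of all genes past that cut were not computed. With 5 or more in place of 3 or more cycle genes, 4 in place of 1 passed 1.5-fold, against 21.2% and 17.4% of all genes on the same floor. Of the 10 genes most like the set, 1 remained among them in cells with neither, where Top2a and Rrm2 have no value, and 8 did with the scaled scores. The background of 2-fold higher genes was 7.73% with at least 10 UMIs and 1.98% with at least 200. Over the log2 folds and detection shares of the 10 genes, 103 stayed within the counting interval of the main value, 74 did not and 3 reversed. The classing by lists, the marking by 5 or more cycle genes and the thinned counts with kept classes were chosen after seeing the data.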
